A study of Mus musculus with 9 samples.

Results

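Aminoacyl-tRNA synthetases and the amino acid genes that the transcription factor ATF4 controls were followed in RNA from microdissected bone capillaries of growing and grown mice. Members were the protein-coding genes whose GRCm38 symbol is 1 letter followed by ars, ars1 or ars2, Eprs, and 18 named genes of the ATF4 programme. The rule gave 53 of the 39179 genes counted in each library, and 51 of them passed the filter on low counts and were tested. Single capillaries with their surrounding cells had been cut by laser from the ossification front (OF) of femurs of Tg(TIE2GFP)287Sato/J reporter mice. In these mice the Tie2 promoter drives GFP in endothelial cells. All mice carried this transgene and no other allele or treatment was given for them. Juvenile mice were 4 weeks old (n = 5 libraries) and adult mice 12 weeks old (n = 4), both sexes were analysed together by the study, and the question was how the surroundings of the vessels change from active growth to its end.

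Aminoacyl-tRNA synthetases load each tRNA with its amino acid, with 1 set of enzymes working in the cytosol and another, mostly named with a final 2, in mitochondria. When amino acids are short or proteins misfold, phosphorylation of the initiation factor eIF2alpha slows most translation but favours that of Atf4, whose product switches on synthetases, amino acid transporters and enzymes that make serine, asparagine and proline. In osteoblasts, the bone-forming cells that secrete collagen rich in glycine and proline, ATF4 is known to be required for normal differentiation and matrix production. Because ATF4 is controlled largely at translation, the counts of its mRNA do not measure its protein.

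The sequence to which ATF4 binds together with a C/EBP partner has the core TGATGNAAN. This motif was searched on both strands of the RefSeq promoter windows of GRCm38.p6, from 250 bases before to 50 bases after each transcription start, and was found in 11 of the 41 members with a window (26.8%), against 1215 of 27025 genes (4.5%). Members with the motif were Gars, Iars, Tars, Yars and Aars among the synthetases and Pycr1, Asns, Chac1, Trib3, Slc7a11 and Slc1a4 among the amino acid genes. The windows of Psat1, Aldh18a1 and Atf4 did not hold these letters, and 12 members, among them Hars, Lars, Nars, Cars, Rars, Vars, Wars, Slc7a5 and Slc1a5, were not searched. A match describes the letters and is no measured binding site. Stretches of 30 bases are shown for 7 members to let the element be compared between the genes called higher in juvenile mice (Gars and Pycr1) and genes that did not pass the test. Capitals mark the motif or its reverse complement, and each line reads 5′ to 3′ along the strand of its gene.
Gars (chr6:55037960-55037989, plus strand): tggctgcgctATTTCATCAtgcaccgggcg
Pycr1 (chr11:120643832-120643861, minus strand): gccctgtgtaTGATGCAATgcacaaggctc
Iars (chr13:49682126-49682155, plus strand): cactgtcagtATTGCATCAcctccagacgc
Tars (chr15:11399655-11399684, minus strand): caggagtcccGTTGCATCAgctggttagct
Yars (chr4:129189896-129189925, plus strand): cgagctcagcTGATGCAACccgacgggact
Asns (chr6:7693213-7693242, minus strand): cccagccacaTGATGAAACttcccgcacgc
Chac1 (chr2:119351038-119351067, plus strand): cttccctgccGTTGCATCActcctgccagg
The motif of Gars lay from -31 to -23 of the RefSeq start and that of Pycr1 from -103 to -95. In Slc7a11 the window held 2 copies, on opposite strands.

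Library totals ranged from 4856833 to 8077362 counts, so that 3 counts, taken as the smallest amount a library can show, corresponded to 0.371 to 0.618 CPM, counts scaled to the library total, a limit that covers counting error only. The members took 1.34% to 2.44% of the counts of a juvenile library and 0.54% to 1.84% of those of an adult library, most of it Lars2. All 12 endothelial markers were detected in every library, with summed levels of 652 to 1043 CPM in juvenile mice and 951 to 1170.4 CPM in adult mice. Of the 12 osteoblast and osteocyte markers, led by collagen genes, 11 were detected in every library and Mepe was at 0 in juvenile replicate 1, and their sum was higher in every juvenile library (163754 to 191808 CPM) than in any adult library (68729 to 95536 CPM). Of these 12 markers, 6 were called in the juvenile direction and 2 in the adult direction. Markers of some blood and marrow cells were higher in all adult libraries, with erythroid sums of 398 to 2471 CPM against 4875 to 41122 CPM (9 of 9 tested markers called), neutrophil sums of 17.5 to 67.4 CPM against 109 to 4955 CPM (8 of 9 called) and macrophage sums of 442 to 799.6 CPM against 1136 to 1963 CPM (2 of 8 called). Sums of T cell and megakaryocyte markers were also higher in every adult library, whereas those of B and plasma cells (292 to 430.5 CPM against 197 to 383 CPM), adipogenic stroma and osteoclasts overlapped. Adult replicate 2 stood apart from the other adult libraries, with 4788 CPM of chondrocyte markers (others 620 to 1105 CPM) and 109 CPM of neutrophil markers (others 3738 to 4955 CPM). The part of these cell types in the differences given here was not tested, and in such mixed samples fewer cells of a type and less RNA per cell cannot be told apart.

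Between the ages, 5 of the 51 tested members were called, all of them higher in juvenile mice: Psat1, Gars, Pycr1, Aldh18a1 and Atf4 (edgeR quasi-likelihood test, adjusted p under 0.05). Among all 13418 tested genes, 1.99% were called in the juvenile direction and 1.89% in the adult direction, 3.88% in all. With DESeq2, the tool the study names, 8 members were called, the same 5 with Mthfd2, Eprs and Iars added, where 4.64% of all genes were called in the juvenile direction and 4.97% in the adult direction. No member was called in the adult direction with edgeR, DESeq2 or limma voom, and 0 members had an unadjusted p under 0.05 in that direction with edgeR, where 8.76% of all genes did. In the juvenile direction 10 members had an unadjusted p under 0.05, where 8.54% of all genes did. Normalized counts, which are counts divided by the TMM-scaled library size, did not overlap between the ages for 7 members, 6 higher in juvenile (5.07% of all genes) and 1 higher in adult mice (4.08% of all genes). The log2 fold change, juvenile over adult, was above 0 for 38 of the 51 members, with a median of 0.19, against 49.5% and a median of -0.01 over all genes. The group of 18 amino acid genes held 4 of the 5 calls, among 17 tested, while 1 of 34 tested synthetases was called. Only Psat1 was called under each of 19 alternative analyses, and Gars was called in 17 of them.

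**Figure D1:**
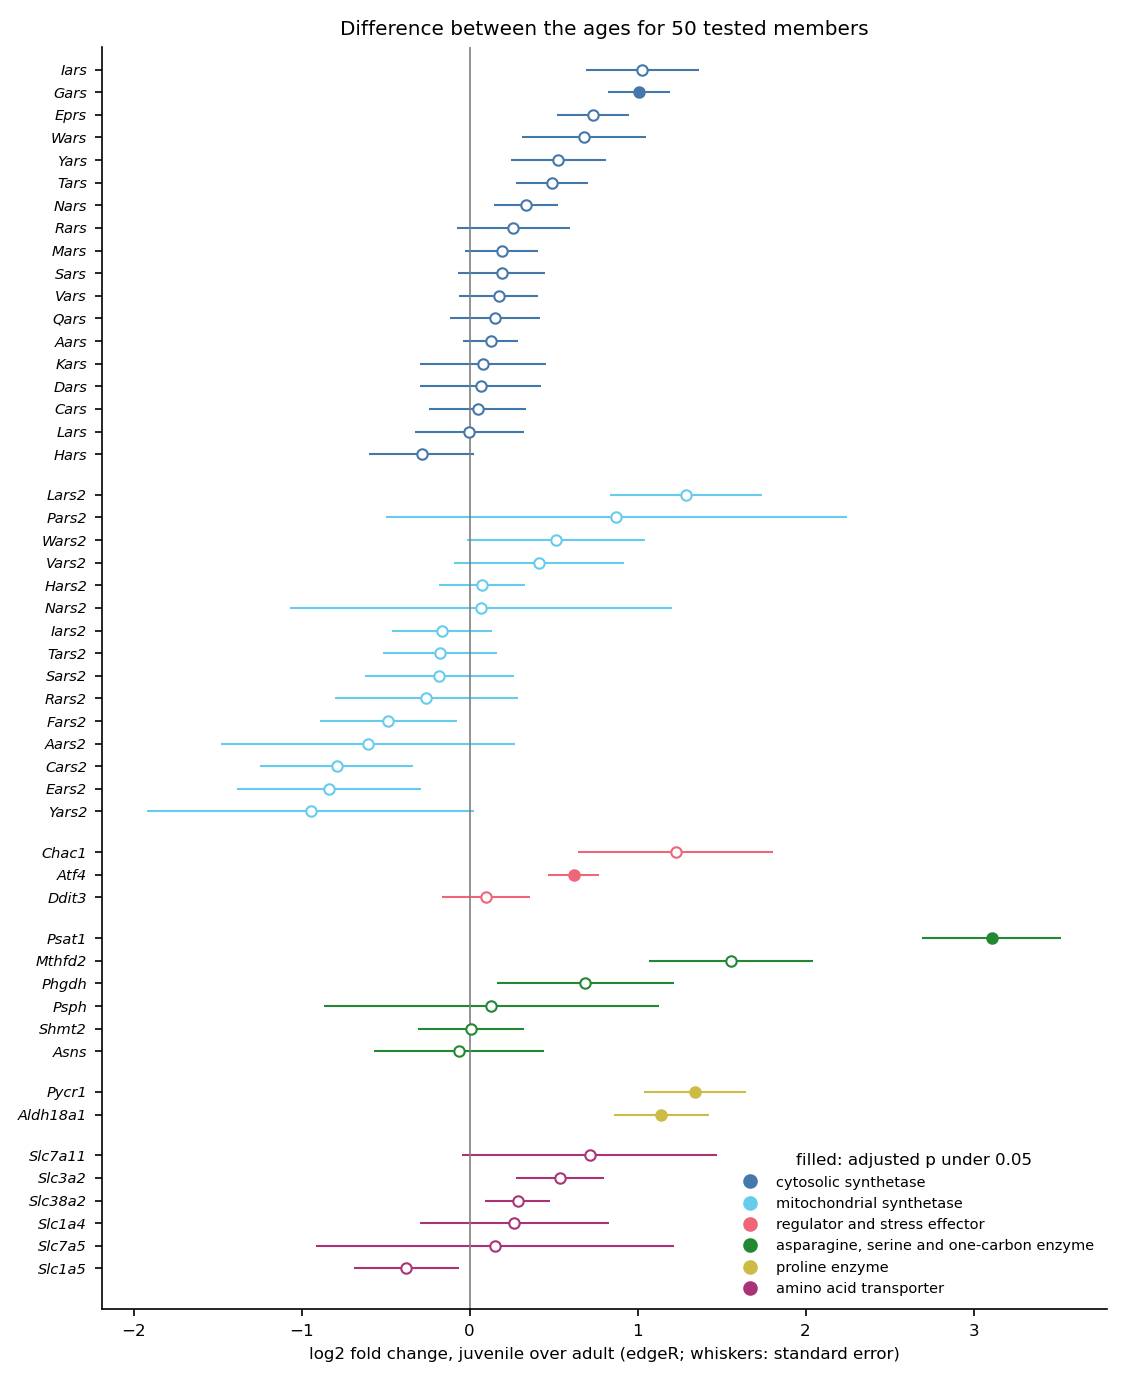
Log2 fold change, juvenile over adult, of 50 tested members (x axis) by role (colours), with standard errors from edgeR and filled points for an adjusted p under 0.05. The 5 filled points all lie above 0, with Psat1 at 3.11, while the mitochondrial synthetases lie on both sides of 0.

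Psat1 showed the largest fold change of any member. It encodes phosphoserine aminotransferase, the middle enzyme of the route that makes serine from a glycolytic intermediate. The gene (ENSMUSG00000024640, chr19:15904678-15947337, minus strand, GRCm38) had normalized counts of 300.4, 288, 592, 363 and 491 in the juvenile libraries and of 61.7, 66.03, 41.2 and 19.7 in the adult libraries. The lowest juvenile library stood far above the highest adult library. The log2 fold change was 3.11 (SE 0.41), or 8.63-fold, with an adjusted p of 0.00208 (edgeR).

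The other enzymes of the serine route did not pass the test. Phgdh, which catalyses its first step, ranged from 253 to 350 normalized counts in juvenile and from 28.3 to 347 in adult mice (log2 fold change 0.69, SE 0.53, adjusted p = 0.584 with edgeR). Psph, which removes the phosphate in the last step, had between 25.03 and 148 counts in juvenile mice and between 0 and 149 in adult mice. Part of the Psph exons, 10.4%, is shared with the antisense-oriented gene Cct6a. For neither gene were the ages separated, and adult replicate 1 was the lowest library for both.

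Mitochondrial one-carbon metabolism takes over the serine. Mthfd2, the folate dehydrogenase and cyclohydrolase that ATF4 is known to induce, had normalized counts of 603, 319, 524, 392 and 604 in juvenile and of 40.6, 363, 134 and 129 in adult mice. The juvenile libraries were all above 3 of the adult libraries, and adult replicate 2 lay among them. Its log2 fold change of 1.56 (SE 0.49) had an adjusted p of 0.0995 (edgeR). In the 9 fits that left out 1 library the adjusted p was 0.0124 to 0.204 (edgeR). The lowest was that without adult replicate 2, the only 1 of the 9 that called Mthfd2. Of all 19 alternatives 3 called it.

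Shmt2, which splits serine into glycine and a one-carbon unit, showed no separation of the ages. Its normalized counts were 479, 294, 385, 201 and 254 in juvenile and 403, 200.2, 411 and 267 in adult mice, with a log2 fold change of 0.01 (SE 0.32). Asns, the asparagine synthetase and a classical ATF4 target, ranged from 119 to 279 counts in juvenile and from 49.7 to 359 in adult mice and had a log2 fold change of -0.06 (SE 0.51). The adult libraries of Asns spanned a wider range than the juvenile ones and contained both the lowest and the highest value.

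Both members of the proline route were called. Aldh18a1 encodes the enzyme that turns glutamate into pyrroline-5-carboxylate, and Pycr1 the mitochondrial reductase that turns this into proline, an amino acid abundant in collagen. Pycr1 (ENSMUSG00000025140, chr11:120635712-120643769, minus strand) had normalized counts of 715, 844, 1059, 844 and 1473 in juvenile and of 601, 376, 369.6 and 208 in adult mice. Juvenile replicate 5 was the highest library and adult replicate 1 came closest to the juvenile range. The log2 fold change was 1.34 (SE 0.30), 2.54-fold, with an adjusted p of 0.0288 (edgeR).

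Aldh18a1 (ENSMUSG00000025007, chr19:40550257-40588463, minus strand) had normalized counts of 693, 459, 629, 583 and 641 in juvenile and of 376, 133, 291 and 288 in adult mice. The ages were again separated, with adult replicate 2 lowest. Its log2 fold change was 1.14 (SE 0.28), 2.21-fold, with an adjusted p of 0.0422 (edgeR). The calls of these genes were close to the threshold. That of Pycr1 was lost without juvenile replicate 3, 4 or 5 or adult replicate 2, 3 or 4 (adjusted p 0.0533 to 0.0779), and that of Aldh18a1 without any single juvenile replicate or adult replicate 3 or 4 (0.0545 to 0.101), while the log2 fold changes in those fits were 1.12 or above for Pycr1 and 1.09 or above for Aldh18a1. Without adult replicate 2, where it was still called, the log2 fold change of Aldh18a1 was 0.90.

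Atf4 itself was among the more abundant members per length. Over the 9 libraries, its mean of 723 normalized counts per kb of exon was exceeded only by Lars2, and Ddit3 (282) and Gars (271) followed. Atf4 (ENSMUSG00000042406, chr15:80255184-80257541, plus strand) had normalized counts of 2000.3, 1685, 2305, 2206 and 1893 in juvenile and of 1286, 1209, 1364 and 1388 in adult mice. All juvenile libraries lay above all adult libraries, and the adult libraries were close together. The difference was the smallest of the 5 called members, with a log2 fold change of 0.62 (SE 0.15), 1.54-fold, and an adjusted p of 0.0398 (edgeR). This call was lost when any library except juvenile replicate 2 was left out (adjusted p 0.0669 to 0.103), with log2 fold changes of 0.56 to 0.64 in those fits.

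The 3 stress effectors downstream of Atf4 were not called. Chac1, which degrades glutathione, had normalized counts of 193, 133, 132, 295 and 241 in juvenile and of 41.4, 94.3, 185 and 18.9 in adult mice. Adult replicate 3 fell inside the juvenile range and the other adult libraries lay below it (log2 fold change 1.23, SE 0.58, adjusted p = 0.301 with edgeR). Ddit3, which encodes the pro-apoptotic factor CHOP, ranged from 312 to 683 in juvenile and from 352 to 614 in adult mice (log2 fold change 0.10, SE 0.26). A stretch of 68 bases of its exons overlaps Mars on the opposite strand. The pseudokinase gene Trib3 was at 0 counts in 6 of 9 libraries and was not tested, and its highest normalized count was 25.6. Summed over the 4 genes, Atf4 included, the normalized counts were 2138 to 3187 in juvenile and 1679 to 2091 in adult mice, a separation that was lost on the scale of the library total (320 to 463 CPM against 275 to 357 CPM).

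**Figure D2:**
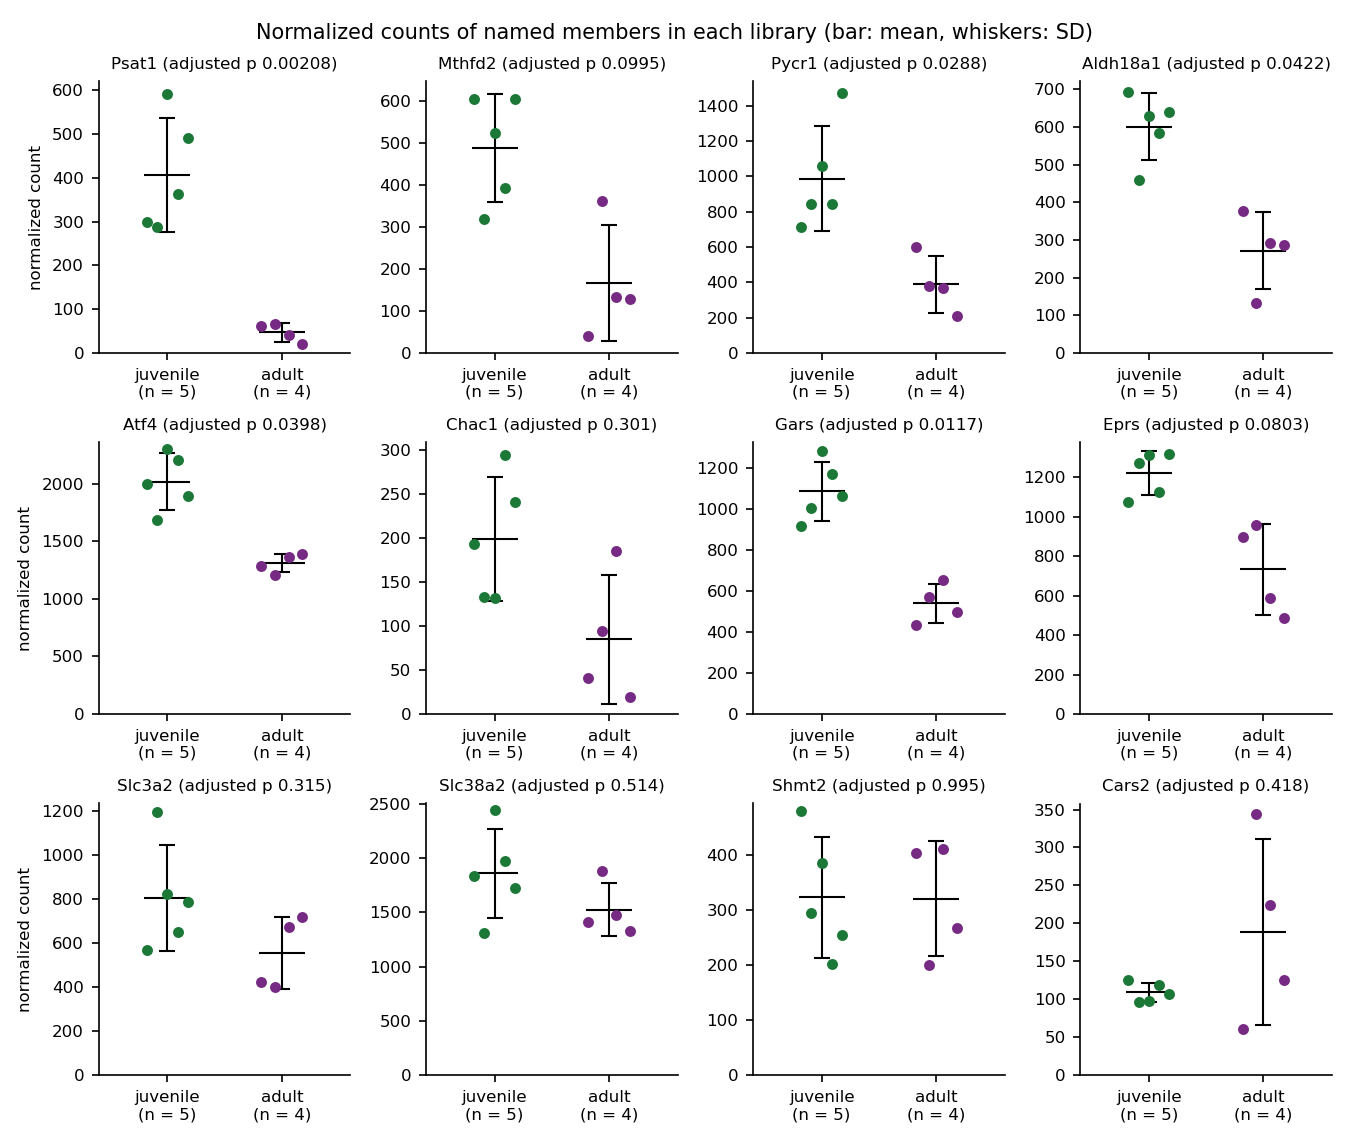
Normalized counts (y axis, from 0) of 12 members in each juvenile and adult library (points), with the mean (bar) and SD (whiskers) of each age. Psat1, Pycr1, Aldh18a1, Atf4, Gars and Eprs show no overlap between the ages, whereas Shmt2 has means of 323 and 320.4.

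Among the 18 cytosolic synthetases, Gars was higher in juvenile mice and the rest did not pass the test. Gars encodes glycyl-tRNA synthetase, which serves both the cytosol and mitochondria. The gene (ENSMUSG00000029777, chr6:55038007-55079500, plus strand) had normalized counts of 916, 1004, 1284, 1171 and 1066 in juvenile and of 437, 572, 655 and 497 in adult mice. The lowest juvenile library lay above the highest adult library by more than the SD of either age (143 and 94.3). Its log2 fold change was 1.01 (SE 0.19), 2.01-fold, with an adjusted p of 0.0117 (edgeR), and it was called whichever single library was left out.

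Eprs, whose product joins glutamate and proline to their tRNAs in 1 protein, was the next by p. Its normalized counts were 1072, 1273, 1310.3, 1126 and 1317 in juvenile and 898, 957, 588 and 487 in adult mice. The ages did not overlap, yet the log2 fold change of 0.74 (SE 0.22) had an adjusted p of 0.0803 (edgeR) and passed the threshold with DESeq2 (0.0259). Iars, for isoleucine, ranged from 355 to 724 in juvenile and from 128 to 372 in adult mice (log2 fold change 1.03, SE 0.34, adjusted p = 0.113 with edgeR). The Iars ranges met only at their edges, where adult replicate 4 exceeded juvenile replicate 3.

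For the other 15 cytosolic synthetases the adjusted p was 0.246 or higher (edgeR). Tars, Yars, Wars, Nars, Rars, Mars, Sars, Vars, Qars, Aars, Kars, Dars and Cars had log2 fold changes between 0.05 and 0.68. Lars stood at 0.00 and Hars at -0.28 (SE 0.31), the lowest of the group. Altogether 16 of the 18 values were above 0, with a median of 0.19. Aars was the least variable example, with 718 to 911 normalized counts in juvenile and 697 to 839 in adult mice. Summed over the 18 genes, the normalized counts were 8881 to 10091 in juvenile and 6590 to 7784 in adult mice, a ratio of means of 1.29. The ratio was 1.15 when the sums were scaled to the library total instead. The ages did not overlap on either scale, though narrowly on the second (1368 to 1478 CPM against 1091 to 1323 CPM). Gars and Eprs, the 2 genes of the group whose own normalized counts did not overlap, are part of both sums. Whether the other genes would separate the ages without them was not tested.

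Mitochondrial synthetases showed no common direction. Of 16 tested genes 0 were called with edgeR or DESeq2, where edgeR called 3.88% of all genes. Only 1, Lars2, had an unadjusted p under 0.05 with edgeR, and it was called with limma voom (adjusted p = 0.0450). Of all genes, 8.54% in the juvenile and 8.76% in the adult direction had an unadjusted p under 0.05 (edgeR). Without Lars2, 6 of 15 log2 fold changes were above 0, with a median of -0.18. Cars2, for cysteine, had normalized counts of 125, 95.8, 97.5, 119 and 106 in juvenile and of 60.9, 344, 224 and 126 in adult mice. Its juvenile libraries were alike, whereas the adult libraries lay on both sides of them (log2 fold change -0.79, SE 0.46, adjusted p = 0.418 with edgeR).

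Ears2, for glutamate, was the member whose counts were higher in every adult library (80.7 to 102) than in any juvenile library (15.9 to 66.5), but its log2 fold change of -0.84 (SE 0.55) had an adjusted p of 0.494 (edgeR). Aars2, Fars2, Hars2, Iars2, Nars2, Pars2, Rars2, Sars2, Tars2, Vars2, Wars2 and Yars2, had log2 fold changes from -0.95 (Yars2) to 0.87 (Pars2). Of these, Nars2, Pars2 and Yars2 were at 0 in 1 or 2 adult libraries and had standard errors of 0.97 to 1.37. Mars2 did not pass the filter and had at most 59.7 normalized counts. The summed level without Lars2 was 1441 to 2067 in juvenile and 1725 to 2063 in adult mice, a ratio of 0.887 with overlapping ages.

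**Figure D3:**
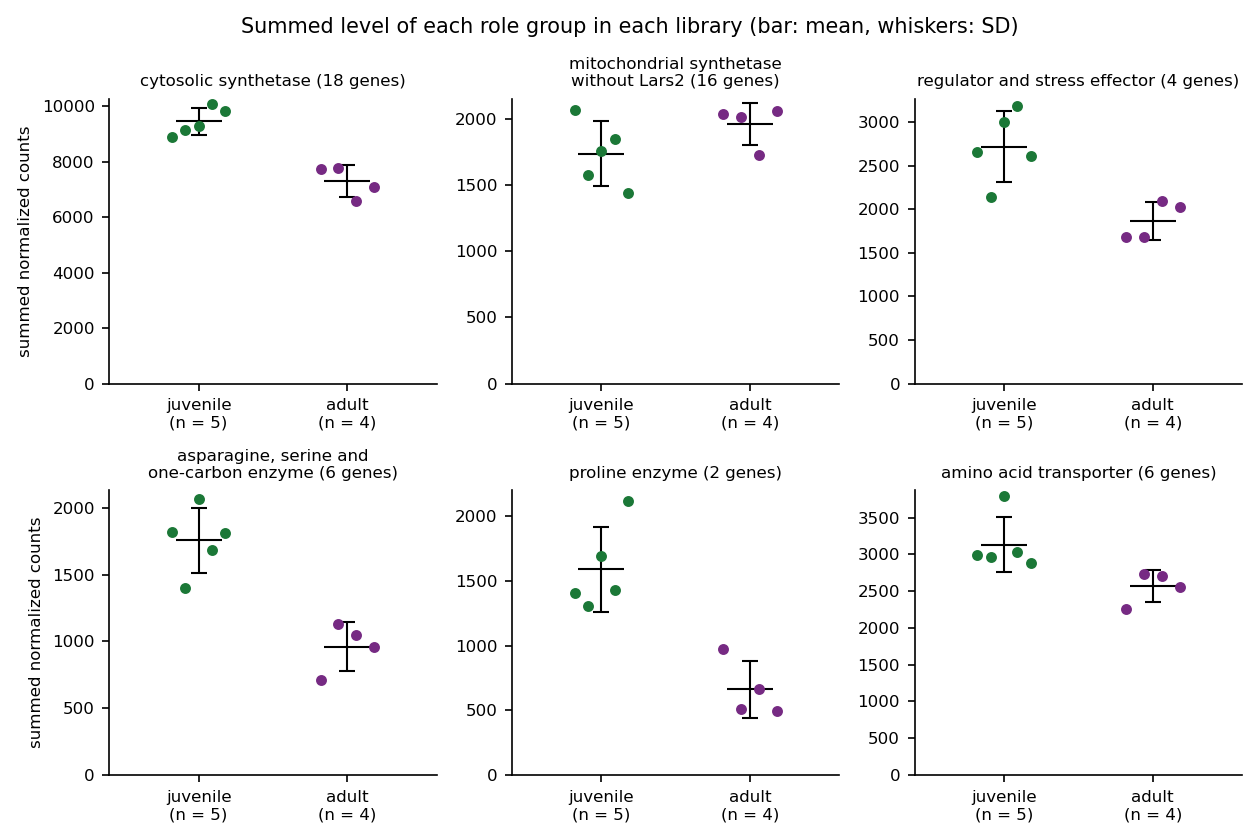
Summed normalized counts (y axis, from 0) of each role group in every library (points), with the mean (bar) and SD (whiskers) of each age. The ages do not overlap for the cytosolic synthetases, regulators, serine group, proline enzymes or transporters, and overlap for the mitochondrial synthetases without Lars2. Scaled to the library total, the regulators and transporters overlap as well.

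Lars2, the mitochondrial leucyl-tRNA synthetase, had by far the highest counts of the members and was treated apart. Its normalized counts were 138588, 84911, 65221, 98074 and 102182 in juvenile and 18213, 96677, 17784 and 27404 in adult mice. Adult replicate 2, the library with the most chondrocyte and the fewest neutrophil marker counts among adults, lay within the juvenile range, and the other adult libraries were far below it. The log2 fold change was 1.29 (SE 0.45) with an adjusted p of 0.143 (edgeR). In the 9 fits that left out 1 library it was 1.03 to 2.19, with an adjusted p of 0.000733 to 0.273 (edgeR). Only 1 of these fits, that without adult replicate 2 (2.19 and 0.000733), called Lars2. Per length, Lars2 had 6503 normalized counts per kb of exon, against 19.9 for Cars2 and 723 for Atf4.

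Lars2 shares a run of sequence with Gm15564, and its counts followed those of Gm15564 and Gm23935 over the libraries. Its last exon, in the 3′ UTR, shares an identical run of 52 bases (chr9:123462048-123462099) with Gm15564, an antisense gene on chromosome 16. Lars2 counts divided by Gm15564 counts stayed between 45.8 and 72.1 over the 9 libraries, a 1.57-fold range, while normalized Lars2 itself spanned a 7.79-fold range. The short gene Gm23935 also followed it (8.46 to 16.4 Lars2 counts per count), although the longest run it shares with Lars2 is 8 bases. The ratio varied more for Gm42418, a non-coding gene of chromosome 17 (1.48 to 4.62), and for the mitochondrial ribosomal RNA mt-Rnr2 (0.358 to 3.37), whose longest runs in common with Lars2 are 12 bases. Adult replicate 2 was the highest adult library for each of these genes. Where the reads originate was not tested, and the Lars2 level is uncertain as a measure of the synthetase.

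**Figure D4:**
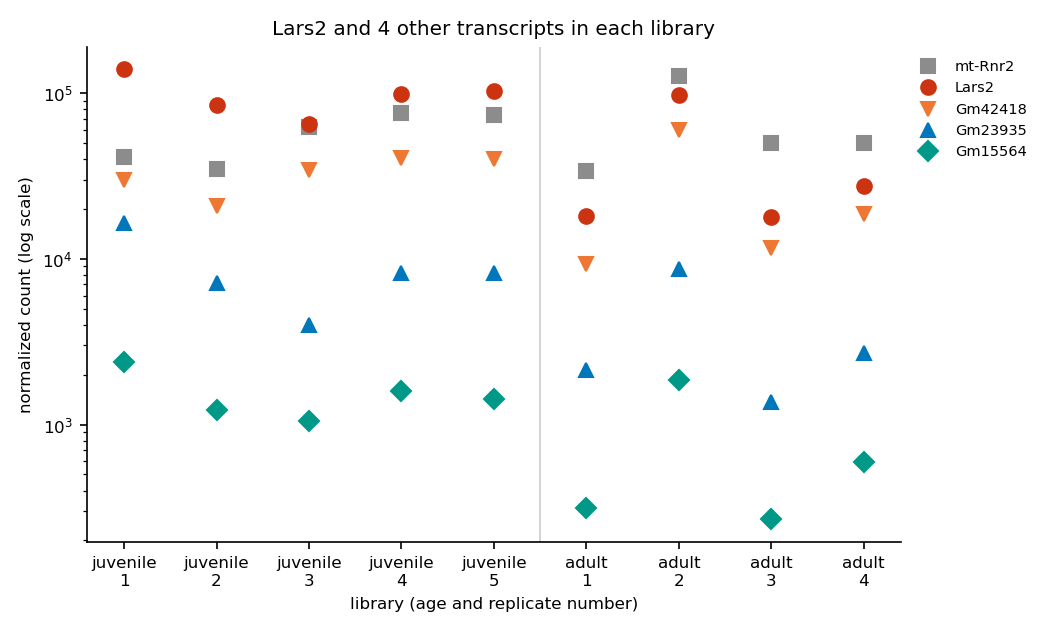
Normalized counts (y axis, log scale) of Lars2, Gm15564, Gm23935, Gm42418 and mt-Rnr2 in each juvenile and adult library (x axis). In adult replicate 2 all 5 genes stand above the other adult libraries, and Lars2 reaches 96677.

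None of the 6 amino acid transporters was called with edgeR, DESeq2 or limma voom, where edgeR called 3.88% of all genes. With edgeR 0 of the 6 had an unadjusted p under 0.05. Of all genes, 8.54% did in the juvenile and 8.76% in the adult direction. Among only 6 genes, counts of 0 are close to these shares. Slc3a2, the heavy chain that carries Slc7a5 or Slc7a11 to the membrane, had normalized counts of 568, 1193, 824, 649 and 788 in juvenile and of 424, 400.4, 672 and 716 in adult mice. Juvenile replicate 2 was the highest library, and the adult libraries reached into the juvenile range (log2 fold change 0.54, SE 0.26, adjusted p = 0.315 with edgeR). Slc38a2, a sodium-coupled carrier of small neutral amino acids, had counts of 1838, 1312, 2446, 1975 and 1725 in juvenile and of 1413, 1879, 1478 and 1326 in adult mice, with a log2 fold change of 0.29 (SE 0.19).

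Slc7a5, the exchanger that imports large neutral amino acids, was the least steady transporter, from 25.9 to 155 in juvenile and from 0.725 to 252 in adult mice. The 0.725 of adult replicate 1 stands for 1 count, below the 3 counts taken as the smallest amount. The cystine importer Slc7a11 ranged from 9.31 to 77.4 and from 16.5 to 40.9 counts. The neutral carriers Slc1a4 and Slc1a5 had log2 fold changes of 0.27 (SE 0.56) and -0.38 (SE 0.31). Summed over the 6 genes, the levels were 2888 to 3793 in juvenile and 2263 to 2736 in adult mice. This separation was lost on the scale of the library total (434 to 585 CPM against 386 to 452 CPM).

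Genes of the same pathways outside the members were also counted. Of 72 such genes 66 were tested and 1 (1.52%, against 3.88% of all genes) was called with edgeR, in the juvenile direction. It was Slc7a7, the light chain that exports cationic amino acids, with normalized counts of 742, 640.1, 446, 929.6 and 668 in juvenile and of 226, 297, 339 and 320.0 in adult mice. The ages did not overlap, and the log2 fold change was 1.21 (SE 0.24) with an adjusted p of 0.0160 (edgeR). None of the 9 eIF2alpha kinase and phosphatase genes or 13 tested further ATF4 network genes was called with edgeR. The same held for the 16 serine, one-carbon and proline genes and the 11 synthetase partners. In this order, 2, 1, 2 and 0 genes had an unadjusted p under 0.05 (edgeR) in the juvenile direction, where 8.54% of all genes did. In the adult direction 0, 0, 3 and 2 did, where 8.76% of all genes did. Of the 17 tested further amino acid transporters, Slc7a7 among them, 3 did in the juvenile direction and 0 in the adult direction. DESeq2 called 7 of the 72 genes, and limma voom called 0. Of the 7, 5 were higher in juvenile mice, among them Slc7a7, Slc38a4, Aldh1l2 and Gcn1l1. The other 2, Glul and Farsa, were higher in adult mice. Over all genes DESeq2 called 4.64% in the juvenile and 4.97% in the adult direction. The median log2 fold change of the synthetase partners was -0.62, with 10 of 11 below 0. That of the further amino acid transporters was 0.43, with 14 of 17 above 0. The median was -0.02 for the eIF2alpha genes, 0.20 for the further ATF4 network genes and -0.44 for the serine, one-carbon and proline genes. Over the 66 tested genes it was -0.04.

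Because the summed osteoblast markers were higher in juvenile libraries, the named members were also set against them, in steps chosen after the data were seen and with no test. Scaled to the library total, the difference in mean log2 CPM between the ages was 2.97 for Psat1, 1.22 for Pycr1, 1.05 for Aldh18a1, 0.85 for Gars and 0.45 for Atf4. The log2 of the summed CPM of the 12 markers, carried mostly by the collagen genes, differed by 1.02. Relative to this sum, the difference was 1.95 for Psat1, 0.21 for Pycr1, 0.04 for Aldh18a1, -0.17 for Gars and -0.57 for Atf4. Of these 5 members, Psat1 alone kept the ages apart relative to the sum. Among the other named members, Slc38a2 was apart in the adult direction (-0.91), and the rest overlapped. Of these, Cars2 (-1.70), Shmt2 (-1.18), Slc3a2 (-0.64) and Eprs (-0.40) were below 0. Mthfd2 (0.70), Lars2 (0.46) and Chac1 (0.41) were above 0. The mean log2 CPM of the same markers, in which each of them counts equally, differed by 0.08 between the ages. Subtracting it moved the difference between the age means of every member by that amount only. The values of single libraries moved as well. Relative to this mean Atf4 overlapped between the ages, while Psat1, Gars, Pycr1 and Aldh18a1 stayed apart. The part of osteoblast content in the differences was not tested beyond these values. The 7 libraries with more Xist than Ddx3y counts were 3 juvenile and 4 adult. All adult but not all juvenile libraries were thus among them, so that the sexes may be unevenly spread over the ages. In these 7 libraries Psat1 was the only called member (adjusted p = 0.0389 with edgeR). The log2 fold changes of Gars, Pycr1, Aldh18a1 and Atf4 were 0.99, 1.17, 1.13 and 0.61.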

How the data were processed

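RNA libraries of 9 mice (5 juvenile, 4 adult) were compared, and groups and replicate numbers came from the sample labels. The authors amplified poly-A RNA with SMART-Seq v4, mapped the paired-end reads to mm10/GRCm38 with TopHat2 and Bowtie2, and deposited raw counts per gene as whole numbers, 1 file for each library. The submitters' processing notes list featureCounts, and its version, strand setting and annotation release are not given in the sources used here. Symbols and positions came from GENCODE vM21. The members and all gene lists were chosen with earlier results of these data known.

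The test between the ages was that of edgeR 4.0.16 in R 4.3.3 (filterByExpr, TMM, quasi-likelihood F test, Benjamini-Hochberg over all 13418 tested genes, called under 0.05, standard errors from the F statistic). The study's own tool, DESeq2, was an alternative (version 1.42.0), as were limma 3.58.1 voom, other scalings, no filter or a minimum of 10 counts, thinning, leaving out dominant genes, a replicate block, 7 libraries and each library left out. Scripts were tested on simulated data. P-values measure only the spread between these libraries. No 2 libraries were copies in 36 pairs compared. Log2 CPM used a prior count of 2.

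Values in every library are given for called members, Atf4, Lars2 and, per role, the 2 members with the smallest p and the member with the most counts per kb. Iars, Phgdh, Asns and further members outside this rule were described after their values were seen. Some genes are counted in the totals but not reported here by name.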

Additional observations from a re-analysis of the deposited data

Results flagged for a closer look

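Within each age, 1 library stood apart from the rest by Dixon's criterion in 7 of 106 member and age combinations, where chance gives about 1 in 20, or 5.3. Of these, 3 were in adult replicate 2: Lars2 (96677 normalized counts, others 17784 to 27404), Vars (451, others 307 to 315) and Mars2 (11.5, others 0 to 1.57). Asns was high in juvenile replicate 4 (279, others 119 to 153) and Fars2 in juvenile replicate 1 (204, others 77.5 to 105). Mars2 was also high in juvenile replicate 2 (59.7, others 1.14 to 14.7). The Mars2 values of 1.14 and 1.57 stand for 1 and 2 counts, below the 3 counts taken as the smallest amount. Trib3 reached 25.6 in adult replicate 3 and was at 0 in the other adult libraries.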

How the results depend on the processing

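Psat1 was called under all 19 alternatives (adjusted p 2.07e-12 to 0.0389), Gars under 17, Pycr1 under 11, Aldh18a1 under 9 and Atf4 under 7, and none of the 5 changed direction in these fits. Relative to the summed osteoblast markers, a step added after the data were seen, Gars (-0.17) and Atf4 (-0.57) turned. DESeq2 called 8 members (all genes, 1492), no filter on low counts 3, the 7 libraries with more Xist than Ddx3y counts 1 (all genes, 73) and fits without 1 library 2 to 6 (all genes, 262 to 651). Limma voom moved the median of all genes from -0.01 to 0.10, and that of the members to 0.37. Shmt2 turned to -0.015 with DESeq2 size factors, -0.018 with DESeq2, -0.011 without the filter and -0.0063 with at least 10 counts, and ranged from -0.18 to 0.14 without 1 library. The summed cytosolic ratio moved from 1.29 to 1.15 scaled to the library total, and the mitochondrial ratio from 2.37 to 0.887 without Lars2. The cause of the other changes was not tested, except that fits with fewer libraries hold fewer samples by construction.

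The labels number the libraries of each age separately. Deviations of same-numbered libraries from their age means had correlations of -0.03 to 0.03. In 5 of 8 libraries, however, the best match in the other age had its own number, in both directions for numbers 3 and 4. Whether same-numbered libraries belong together was not tested beyond these values. With the replicate block 1 member, Psat1, was called, and 89 of all genes. At this depth Trib3 and Mars2 fell below the filter on low counts, and Nars2, Pars2 and Yars2 had standard errors near 1 or above, so that smaller differences were not detectable.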
